A study of Mus musculus with 8 samples.

Results

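The nuclear-encoded subunits of the respiratory chain and of ATP synthase were examined in RNA-seq of mouse testis, with the testis isoforms among them. Members were taken by symbol: Ndufa, Ndufab, Ndufb, Ndufc, Ndufs and Ndufv genes with a number for complex I, Uqcr for complex III, Cox4i, Cox5, Cox6, Cox7 and Cox8 for complex IV, Atp5 for complex V, and the pair Cycs and Cyct for cytochrome c. The rule gave 83 of the 23983 genes in the table, 38 of complex I, 8 of complex III, 18 of complex IV, 17 of complex V and 2 of cytochrome c. The rule used symbols only and no measured value. WT C57BL/6J testes were sampled at 3 ages after birth, d12, d16 and d24, and from adults, with 1 total RNA library per age and no treatment or transgene in any of them. Each library was made from testis tissue with all its cell types, and how many animals went into a library is not given in the sources used here. The question the ages address is which genes become active as the first wave of spermatogenesis passes from meiosis into the haploid stage. H3K27Ac ChIP-seq of these ages, 4 samples, is not analysed here.

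The respiratory chain passes electrons from NADH and succinate through ubiquinone to complex III, then through cytochrome c to complex IV, also called cytochrome c oxidase or COX, which reduces oxygen. Complexes I, III and IV pump protons across the inner mitochondrial membrane, and complex V, the ATP synthase, lets them back to make ATP. Most subunits are encoded in the nucleus by a single gene that every tissue uses, but some subunits of complex IV and cytochrome c itself have a second gene that is used in one tissue, such as heart, skeletal muscle, lung or testis. In the testis, male germ cells carry their own cytochrome c, Cyct, and their own COX subunits, Cox6b2, Cox7b2 and Cox8c. The general forms of these are Cycs, Cox6b1, Cox7b and Cox8a, called partners here.

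Levels are given in FPKM, fragments scaled by transcript length and by library. The values were made without effective length correction, so a comparison of levels between genes of different length is only approximate. No spread between animals can be given with 1 library per age, and no test across ages was made. Intervals in parentheses are exact 95% intervals from the number of fragments behind a value and cover counting error only. A member is said to have risen or fallen only where its value changed by more than 2-fold on the log2(FPKM + 0.1) scale, which understates the change of low genes. The value of 1 fragment on a transcript of 1 kb was 0.0799, 0.08003, 0.0455 and 0.112 FPKM in order of age (d12, d16, d24, adult), so d24 was the deepest library by this unit and adult testis the shallowest. FPKM values summed to 283580 at d12 and 659202 in adult testis, and the scaling between libraries therefore bears on any change between ages. Rescaling the libraries to the same FPKM sum divides every ratio of adult testis to d12 by 2.32, and rescaling by the upper quartile divides it by 1.91, while scaling by median ratios divides it by 0.982. Fewer cells of a type and less RNA per cell cannot be told apart in tissue RNA.

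The 3 pairs of isoform and partner with a promoter in the RefSeq table of GRCm38.p6 are shown first, since the largest changes among the members lay in such pairs and each isoform has a promoter of its own. Each line holds the 200 bases upstream of the transcription start, 5′ to 3′ on the strand of the gene. Capitals mark TGACG on either strand, the shared part of cAMP response elements. The windows are chr2:76360454-76360653 for Cyct, chr6:50566570-50566769 for Cycs, chr7:4753095-4753294 for Cox6b2, chr7:30626115-30626314 for Cox6b1, chr5:71548206-71548405 for Cox7b2 and chrX:106015500-106015699 for Cox7b. Cox7b lies on the plus strand and the others on the minus strand.
Cyct: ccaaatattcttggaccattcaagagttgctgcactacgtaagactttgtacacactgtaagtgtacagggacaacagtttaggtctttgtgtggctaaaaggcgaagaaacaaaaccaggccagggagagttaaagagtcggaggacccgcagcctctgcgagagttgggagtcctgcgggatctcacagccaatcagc
Cycs: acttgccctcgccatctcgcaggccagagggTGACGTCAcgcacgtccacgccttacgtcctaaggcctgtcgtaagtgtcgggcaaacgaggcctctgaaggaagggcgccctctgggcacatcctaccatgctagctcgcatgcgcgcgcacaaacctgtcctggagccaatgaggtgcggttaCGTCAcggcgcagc
Cox6b2: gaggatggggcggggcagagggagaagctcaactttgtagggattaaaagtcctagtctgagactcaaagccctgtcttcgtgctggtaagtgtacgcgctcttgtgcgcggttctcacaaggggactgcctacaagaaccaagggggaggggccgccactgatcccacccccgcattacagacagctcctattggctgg
Cox6b1: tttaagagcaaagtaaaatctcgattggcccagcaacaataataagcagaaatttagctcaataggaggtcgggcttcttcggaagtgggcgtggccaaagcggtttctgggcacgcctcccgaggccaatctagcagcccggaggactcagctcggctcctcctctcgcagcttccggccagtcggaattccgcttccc
Cox7b2: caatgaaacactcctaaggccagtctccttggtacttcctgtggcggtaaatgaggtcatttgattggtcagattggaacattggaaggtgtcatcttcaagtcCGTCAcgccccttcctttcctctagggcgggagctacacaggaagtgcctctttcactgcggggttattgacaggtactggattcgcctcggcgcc
Cox7b: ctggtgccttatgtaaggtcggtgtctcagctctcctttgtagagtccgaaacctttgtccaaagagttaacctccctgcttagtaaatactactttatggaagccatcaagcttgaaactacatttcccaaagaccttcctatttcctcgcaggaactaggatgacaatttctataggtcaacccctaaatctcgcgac
The Cycs promoter holds the whole palindrome TGACGTCA, which starts 169 bases before the transcription start, and a further TGACG on the minus strand 14 bases before it. The Cox7b2 promoter holds TGACG on the minus strand, 96 bases before the start, and the windows shown of Cyct, Cox6b2, Cox6b1 and Cox7b hold none. The Cox8c promoter is not shown.

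All 4 testis isoforms rose and 3 of their 4 partners fell from d12 to adult testis, under each of the 4 scalings used. The isoform Cyct is encoded on the minus strand at chr2:76353942-76360453 (GRCm38) in 4 exons. It had 14.9 FPKM at d12 (12.4 to 17.8), 111 FPKM at d16 (104 to 118), 159 FPKM at d24 (152 to 165) and 152 FPKM in the adult (142 to 162), a rise of 10.2-fold (8.42 to 12.4). Cycs, the general cytochrome c of the electron transport chain and of the apoptosis pathway, lies on the minus strand at chr6:50562563-50566569. It had 121 FPKM at d12 (118 to 125), 90.2 FPKM at d16 (87.3 to 93.2), 36.8 FPKM at d24 (35.4 to 38.3) and 30.4 FPKM in the adult (28.3 to 32.4), and the ratio of adult testis to d12 was 0.251 (0.233 to 0.2697). The pair crossed between d12, where Cycs was the higher, and d16, where Cyct was the higher by a small margin.

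COX subunit VIb sits on the intermembrane side of complex IV, near the place where cytochrome c docks. Its testis isoform Cox6b2, at chr7:4751792-4753094 on the minus strand of chromosome 7, had 39.7 FPKM at d12 (34.8 to 45.2), 449 FPKM at d16 (432 to 467), 1187 FPKM at d24 (1166 to 1208) and 1566 FPKM in the adult (1528 to 1604). This is a rise of 39.5-fold (34.5 to 45.1). Cox6b2 moved from rank 1373 of all genes in the table at d12 to rank 49 at d16, rank 16 at d24 and rank 27 in adult testis, and it was the highest of the 83 members in adult testis. Its partner Cox6b1, on the same chromosome at chr7:30616971-30626114, had 109 FPKM at d12 (100.1 to 119), 88.1 FPKM at d16 (79.7 to 97.02), 49.3 FPKM at d24 (44.6 to 54.4) and 45.1 FPKM in the adult (38.2 to 53.04). The ratio of adult testis to d12 for Cox6b1 was 0.412 (0.341 to 0.496). As deposited, Cox6b1 was lower at every later age while Cox6b2 was higher at every later age, and with the same FPKM sum the adult value of Cox6b2 lay below that at d24.

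COX subunit VIIb is a small membrane subunit whose general gene, Cox7b, is X-linked and whose testis isoform, Cox7b2, is on chromosome 5. Cox7b2 (chr5:71442823-71548205, minus strand) had 38.1 FPKM at d12 (33.6 to 43.04), 237 FPKM at d16 (226 to 249), 544 FPKM at d24 (531 to 557) and 506 FPKM in the adult (486 to 526), a rise of 13.3-fold (11.7 to 15.1). Cox7b (chrX:106015700-106022450, plus strand) had 61.7 FPKM at d12 (57.5 to 66.3), 32.8 FPKM at d16 (29.7 to 36.1), 18.1 FPKM at d24 (16.3 to 19.9) and 21.5 FPKM in the adult (18.6 to 24.8), with a ratio of adult testis to d12 of 0.348 (0.296 to 0.409). As deposited, the d24 library held the highest Cox7b2 value and the lowest Cox7b value, and with the same FPKM sum the lowest Cox7b value was that of adult testis.

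COX subunit VIII is the smallest of the nuclear-encoded membrane subunits of complex IV. Its testis isoform Cox8c, at chr12:102899306-102900534 on chromosome 12, rested on 13 fragments at d12. It had 2.18 FPKM at d12 (1.16 to 3.73), 42.9 FPKM at d16 (37.8 to 48.5), 245 FPKM at d24 (236 to 255) and 202 FPKM in the adult (189 to 216), and its rise of 92.6-fold (53.9 to 175) was the largest of all members under each scaling. The general form Cox8a had 23.4 FPKM at d12 (19.96 to 27.4), 15.1 FPKM at d16 (12.3 to 18.3), 13.9 FPKM at d24 (11.9 to 16.2) and 11.7 FPKM in the adult (8.89 to 15.2). Its ratio of adult testis to d12 was 0.5003 (0.363 to 0.681), just inside the 2-fold limit as deposited, past it with the libraries rescaled to the same FPKM sum or by the upper quartile, and lower in adult testis under every scaling. No near copy of any of these 8 genes was found in the genome at the identity and coverage searched. A hit had to cover 80% of the transcript. The search therefore could not count shorter copies of the Cycs transcript, which is 3154 bp, and leaves them undecided.

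**Figure D1:**
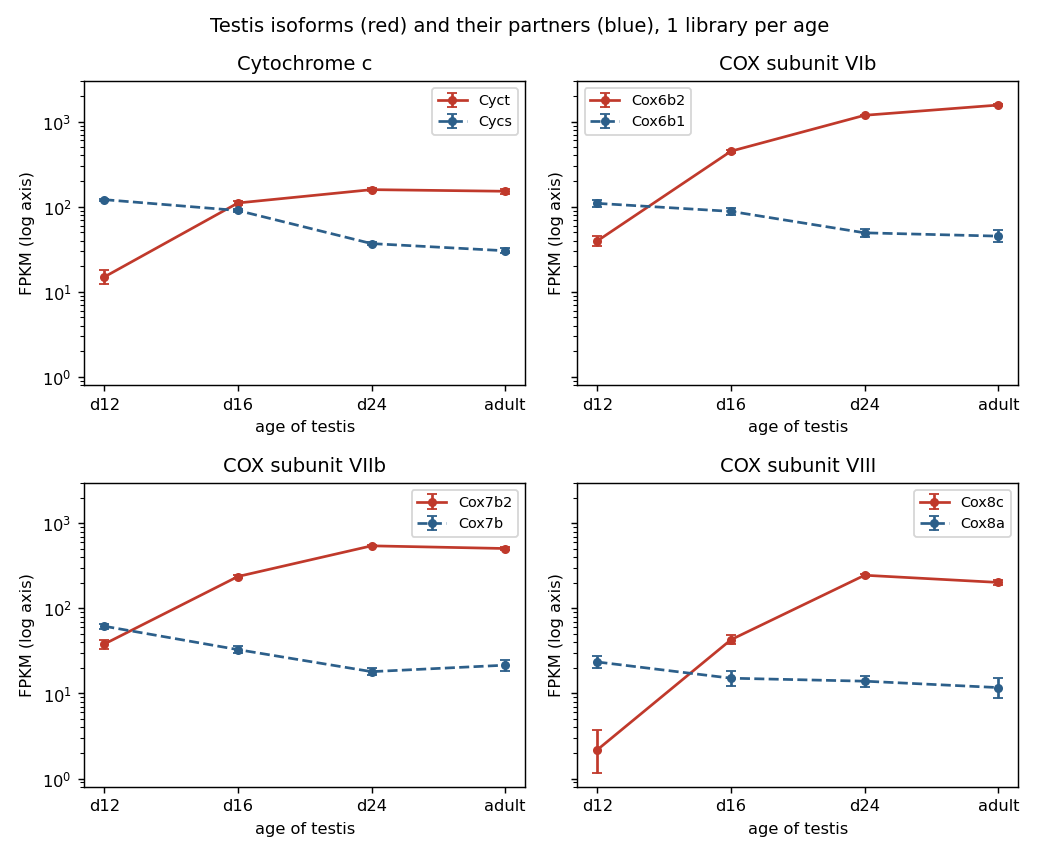
FPKM on a log axis at the 4 ages for each testis isoform (red, solid) and its partner (blue, dashed), 1 library per age, with bars for the 95% counting interval. Each isoform starts below its partner at d12 and lies above it from d16 on; Cox6b2 reaches 1566 FPKM in adult testis while Cox6b1 is at 45.1.

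The share of the testis isoform in the sum of isoform and partner is measured within a library, so scaling between libraries leaves it as it is. For cytochrome c, the share of Cyct was 10.98% at d12 (9.28 to 12.9), 55.1% at d16 (53.3 to 56.9), 81.2% at d24 (80.3 to 82.01) and 83.3% in the adult (81.99 to 84.6). For subunit VIb, the share of Cox6b2 was 26.6% at d12 (23.6 to 29.8), 83.6% at d16 (82.1 to 85.03), 96.01% at d24 (95.6 to 96.4) and 97.2% in the adult (96.7 to 97.6). For subunit VIIb, the share of Cox7b2 was 38.2% at d12 (34.8 to 41.6), 87.9% at d16 (86.6 to 88.98), 96.8% at d24 (96.5 to 97.1) and 95.9% in the adult (95.3 to 96.5). In each pair the partner held the larger share at d12 and the isoform the larger share at d16, with counting intervals that do not overlap between these ages. For subunit VIII, the share of Cox8c was 8.51% at d12 (4.62 to 14.1), 73.9% at d16 (69.2 to 78.3), 94.6% at d24 (93.8 to 95.4) and 94.5% in the adult (92.9 to 95.8). From d24 to adult testis the intervals of Cyct, Cox7b2 and Cox8c overlapped, and that of Cox6b2 lay higher in adult testis. Cyct kept the lowest share of the 4 isoforms from d16 on. The share of Cyct depends on length more than the others, because the curated Cycs transcript is 3154 bp and that of Cyct 658 bp, and without division by length Cyct made up 51.1% of the fragments of its pair in adult testis.

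The sums of isoform and partner also differed between the pairs. The summed FPKM of Cyct and Cycs was 136, 201, 196 and 182 in order of age, 1.34-fold higher in adult testis than at d12 as deposited and lower with the same FPKM sum or upper quartile scaling. The sum of Cox6b2 and Cox6b1 went from 149 to 1611 FPKM, which is 10.8-fold. The sum of Cox7b2 and Cox7b went from 99.8 to 527 FPKM, which is 5.28-fold. The sum of Cox8c and Cox8a went from 25.6 to 214 FPKM, which is 8.34-fold. In the cytochrome c pair the lower value of Cycs thus offset a good part of the higher value of Cyct, while in the COX pairs the partner was too low to do so. Of the summed FPKM of the 18 complex IV genes, Cox6b2, Cox7b2 and Cox8c made up 5.28%, 28.0%, 46.1% and 45.8% in order of age.

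**Figure D2:**
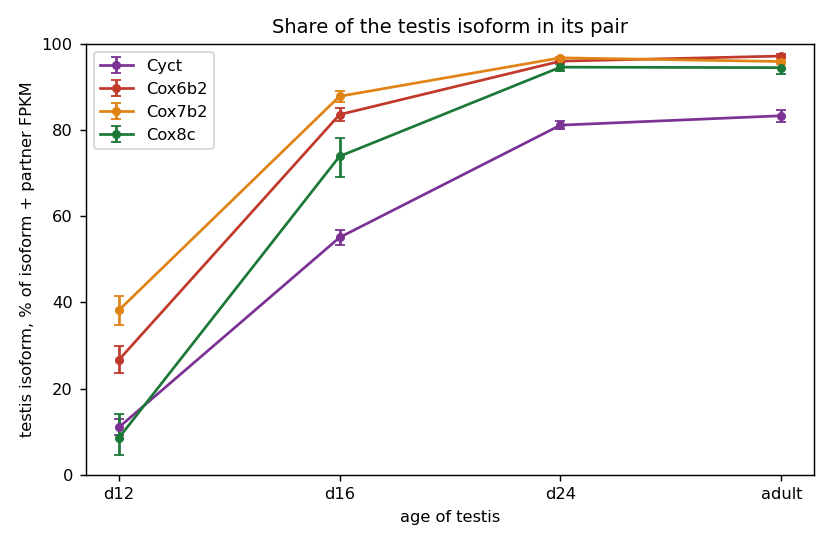
Share of each testis isoform in the summed FPKM of isoform and partner, in percent, at the 4 ages, with bars for the 95% counting interval. All 4 shares are under 40% at d12 and over 80% from d24 on, and Cyct, at 83.3% in adult testis, stays below the 3 COX isoforms.

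As deposited, markers of several cell types had higher sums in adult testis than at d12. These were pachytene, early meiotic, round spermatid, elongating spermatid and Leydig cell markers, and the myoid markers given below. The sums of spermatogonial and Sertoli cell markers, and of the fat markers given below, were lower. The direction of the isoforms or of the partners was therefore shared by more than a single cell type. The summed FPKM of 6 pachytene spermatocyte markers, genes of the long meiotic prophase such as Ldhc and Hspa2, was 48.8, 840, 3874 and 4808 in order of age, with none at 0. The highest of them held 39.9 FPKM of the d12 sum. The sum of 6 round spermatid markers was 2.80, 15.0, 467 and 1193 FPKM, with Acrv1 and Catsper3 at 0 at d16. At d16 the isoforms had already passed their partners, while the round spermatid markers were low. The sum of 6 spermatogonial markers was 289, 169, 86.8 and 62.1 FPKM, and that of 8 Sertoli cell markers was 907, 758, 514 and 527 FPKM, with Amh at 0 in adult testis. The highest Sertoli cell marker held 707, 609, 420 and 457 FPKM of these sums, which therefore do not describe most of the list. From d12 to adult testis 5 of the 8 fell as deposited, against 23.1% of all genes. The sum of 6 early meiotic markers was 894, 1751, 1127 and 1058 FPKM. The sum of 6 elongating spermatid markers was 13.1, 4.33, 2325 and 26087 FPKM, with Gapdhs at 0 at d16. Leydig cell markers summed to 132, 82.4, 153 and 581 FPKM over 6 genes, and macrophage markers to 45.2, 53.4, 45.4 and 44.6 FPKM over the 5 found in the table. The part of cell composition in the changes of the members was not tested.

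Of the 83 members, 81 had a mean of at least 1 FPKM over the 4 libraries, and Cox6a2 and Cox8b lay below it. From d12 to d16, 5 of the 81 rose, against 12.6% of all 13901 genes with such a mean, and 0 fell, against 3.67% of all genes. The 5 were the 4 testis isoforms and Ndufc1, a small complex I subunit. The share of members that rose was below the background, and without the testis isoforms it was 1 of 77. From d16 to d24, 12 rose, against 27.5% of all genes, and 3 fell, against 8.45%, and the whole counting interval lay past 2-fold in 9 of the rises and 1 of the falls. The 3 that fell were Cycs, Cox7a1 and the X-linked Ndufa1. The balance turned with the same FPKM sum, with 3 rises, against 19.3% of all genes, and 10 falls, against 30.2%. From d24 to adult testis, 0 rose, against 11.4% of all genes, and only Cox4i2 passed the limit downward, against 2.2%. Its ratio of adult testis to d24, 0.308 (0.0344 to 1.31), rested on 16 and 2 fragments, and its counting interval includes no change.

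From d12 to adult testis, 31 of the 81 members rose, against 35.7% of all genes, and 6 fell, against 23.1%. The share of members that rose was close to the background, and the share that fell was below it. The whole counting interval of the ratio lay past 2-fold in 27 of the rises and 5 of the falls. The split depends on the scaling. With the same FPKM sum in every library, 6 members rose and 27 fell, against 23.2% and 49.8% of all genes, and with upper quartile scaling 9 rose and 22 fell, against 25.5% and 43.8%. Under all 4 scalings, 6 members rose past 2-fold, against 23.2% of all genes, and 6 fell, against 22.6%. Those that rose were the 4 testis isoforms, Ndufa4l2 and Uqcrq, and those that fell were Cycs, Cox6b1, Cox7b, Ndufb11, Ndufa4 and Cox4i2. Without regard to size, 26 members were higher and 23 lower in adult testis than at d12 under all 4 scalings, and the direction of the other members turned with the scaling. Shares of all genes are not given for these counts, which describe the members only and take no account of counting error. Ndufa11, counted as lower, had a ratio of 0.972 (0.791 to 1.19) as deposited, an interval that includes no change. The median log2 change was 0.64 for the members and 0.20 for all genes as deposited. The members' median thus lay 0.44 above that of all genes, and 0.40 above it without the testis isoforms. Rescaling a whole library shifts all genes nearly alike, so the scalings could hardly move this difference by construction.

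As deposited, the largest step lay between d16 and d24 in 46 members, between d12 and d16 in 24 and between d24 and adult testis in 11. The step from d16 to d24 was also that in which most genes of the table passed 2-fold, 27.5% upward and 8.45% downward. From d12 to d16 these shares were 12.6% and 3.67%, and from d24 to adult testis 11.4% and 2.2%. As deposited, 28 members had a higher value at each later age, 9 had a lower value at each later age and 44 had a mixed course. Counts of largest steps and courses over all genes are not given here, so these describe the members only. The median log2 change of the members was 0.23 from d12 to d16, 0.37 from d16 to d24 and -0.01 from d24 to adult testis, where all genes had 0, 0.13 and -0.02. The summed FPKM of the 83 members made up 1.92%, 2.37%, 2.21% and 1.75% of the library's FPKM in order of age. The order of the levels changed little between the oldest ages. Over the 77 tested members other than the testis isoforms, Spearman's rho between the levels of 2 libraries was 0.983 for d24 and adult testis and 0.813 for d12 and adult testis, where all tested genes had 0.948 and 0.379. These points share their transcript lengths and libraries, and the values are a description.

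**Figure D3:**
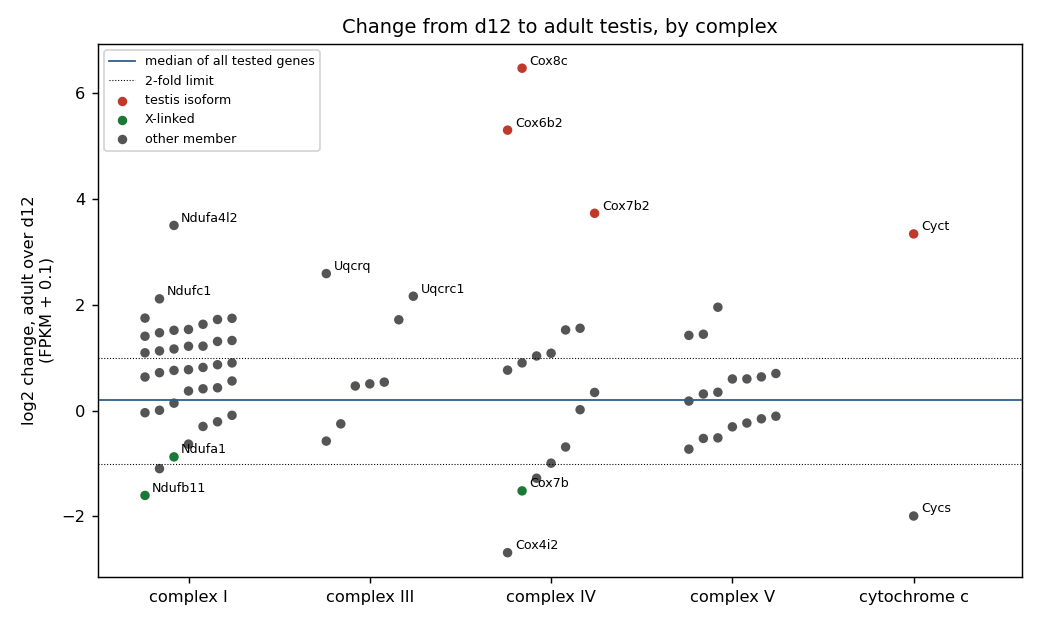
Log2 change from d12 to adult testis, as deposited, of the 81 members averaging at least 1 FPKM, by complex (horizontal spread within a complex only separates the points). The blue line is the median of all tested genes at 0.20 and dotted lines are the 2-fold limit; the testis isoforms (red) lie at 3.34 to 6.47 and the 3 X-linked members (green) at -0.87 to -1.60. Rescaling to the same FPKM sum lowers every point by about 1.22, which turns the direction of the points between 0 and that value.

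Complex I takes electrons from NADH. Of its 38 members, 17 rose and 2 fell from d12 to adult testis as deposited, against 35.7% and 23.1% of all genes, with a median log2 change of 0.84. With the same FPKM sum 1 rose and 10 fell, against 23.2% and 49.8% of all genes. These counts include Ndufa4 and Ndufa4l2, whose place is described below. Ndufa4 was 1 of the 2 that fell as deposited. Ndufa4l2, from 3 fragments at d12, was the only one that rose with the same FPKM sum. The core subunits carry the flavin and the iron-sulfur clusters. Ndufv2, a core subunit which holds an iron-sulfur cluster of the NADH-binding part, had 92.4 FPKM at d12, 142 FPKM at d16, 237 FPKM at d24 and 305 FPKM in the adult. Its deposited values increased with age in all 4 libraries, and it was higher in adult testis under every scaling. Ndufs8, a core subunit next to the membrane, had 21.9 FPKM at d12, 16.3 FPKM at d16, 19.1 FPKM at d24 and 14.1 FPKM in the adult, and it was lower in adult testis under every scaling. Core subunits of one complex thus went in different directions.

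Of the 31 accessory members of complex I, 15 rose and 2 fell as deposited, and with the same FPKM sum 1 rose and 8 fell, against the same shares of all genes. Ndufa4 and Ndufa4l2 are counted here too, and Ndufa4l2 was again the only one that rose with the same FPKM sum. Ndufa5, an accessory subunit of the peripheral arm, had the highest mean of complex I. It had 122 FPKM at d12 (113 to 132), 189 FPKM at d16 (178 to 201), 244 FPKM at d24 (234 to 254) and 303 FPKM in the adult (286 to 321), a rise of 2.47-fold (2.25 to 2.73) as deposited that was within 2-fold with the same FPKM sum. Ndufc1, a small membrane subunit, had 16.97 FPKM at d12 (13.6 to 20.9), 48.3 FPKM at d16 (42.5 to 54.7), 78.5 FPKM at d24 (72.9 to 84.5) and 73.7 FPKM in the adult (65.2 to 83.01), and it rose 4.34-fold (3.401 to 5.59) as deposited, within 2-fold with the same FPKM sum. Its main step was from d12 to d16, as for the testis isoforms, and that step passed 2-fold under all 4 scalings. Ndufa12 went from 91.5 to 307 FPKM and Ndufa6 from 30.9 to 104 FPKM, both higher in adult testis under every scaling. Ndufa10, a large accessory subunit, had 45.6 FPKM at d12, 42.4 FPKM at d16, 34.1 FPKM at d24 and 45.8 FPKM in the adult, so its d12 and adult values differed by less than their counting error as deposited, and its adult value was under that at d12 with the same FPKM sum.

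Ndufa4 and Ndufa4l2 formed a pair with opposite courses. Ndufa4 was first counted as a complex I subunit and has since been placed in complex IV, and Ndufa4l2 is its paralog, known as a gene induced by low oxygen. Ndufa4 had 38.6 FPKM at d12 (33.8 to 43.8), 29.6 FPKM at d16 (25.5 to 34.2), 15.6 FPKM at d24 (13.4 to 18.2) and 18.01 FPKM in the adult (14.3 to 22.5), with a ratio of adult testis to d12 of 0.466 (0.359 to 0.605). Ndufa4l2 had 0.248 FPKM at d12 (0.0514 to 0.728), 0.581 FPKM at d16 (0.234 to 1.1999), 3.35 FPKM at d24 (2.62 to 4.24) and 3.84 FPKM in the adult (2.65 to 5.405), from 3 fragments at d12 and 33 in adult testis, a ratio of 15.4 (4.85 to 78.7). The share of Ndufa4l2 in the pair was 0.639% at d12 (0.132 to 1.87), 1.93% at d16 (0.773 to 3.97), 17.7% at d24 (13.8 to 22.1) and 17.6% in the adult (12.1 to 24.4). Ndufa4 remained the higher of the pair at every age, unlike the partners of the testis isoforms.

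Subunits of complex I are built in at a fixed number of copies, yet their levels differed widely within a library. Leaving out Ndufa4l2, the levels ran at d12 from 7.02 FPKM for Ndufa11 to 122 for Ndufa5, which is 17.4-fold. In adult testis they ran from 4.86 FPKM for Ndufb11 to 307 for Ndufa12, which is 63.0-fold. These spreads are approximate, because the genes differ in length and no effective length correction was made. The median level of these 37 members was 30.9, 43.6, 64.4 and 64.0 FPKM in order of age.

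Complex III takes electrons from ubiquinol to cytochrome c. Of its 8 members, 3 rose and 0 fell from d12 to adult testis as deposited, against 35.7% and 23.1% of all genes, so the share that rose was close to the background. With the same FPKM sum 1 rose and 2 fell, against 23.2% and 49.8%. Uqcrq, a small membrane subunit, had 26.6 FPKM at d12 (24.2 to 29.1), 40.9 FPKM at d16 (38.004 to 43.97), 166 FPKM at d24 (162 to 171) and 160.2 FPKM in the adult (153 to 167), a rise of 6.03-fold (5.46 to 6.68). Most of its change lay between d16 and d24, and both that step and the whole change passed 2-fold under all 4 scalings. Uqcrc1, a core protein of the matrix side, had 28.02 FPKM at d12 (25.8 to 30.4), 52.4 FPKM at d16 (49.3 to 55.6), 115 FPKM at d24 (112 to 119) and 126 FPKM in the adult (120.0 to 131), a rise of 4.48-fold (4.08 to 4.93). Uqcrfs1, the Rieske iron-sulfur protein, had 14.96 FPKM at d12, 23.2 FPKM at d16, 54.1 FPKM at d24 and 49.4 FPKM in the adult. Both were higher in adult testis under every scaling, within 2-fold with the same FPKM sum. Uqcrc2, the other core protein, had 25.9 FPKM at d12, 36.7 FPKM at d16, 48.2 FPKM at d24 and 35.8 FPKM in the adult, higher in adult testis than at d12 as deposited and lower with the same FPKM sum.

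Uqcrb, the ubiquinone-binding protein, had the highest mean of complex III. It had 296 FPKM at d12, 378 FPKM at d16, 404 FPKM at d24 and 429 FPKM in the adult, higher in adult testis as deposited and lower with the same FPKM sum, and 3 near copies of it were found in the genome. Uqcrh, the hinge protein that binds cytochrome c1, had 225 FPKM at d12, 211 FPKM at d16, 202 FPKM at d24 and 189 FPKM in the adult, and Uqcr11, the smallest subunit, had 51.8 FPKM at d12, 48.99 FPKM at d16, 43.2 FPKM at d24 and 34.7 FPKM in the adult. The values of both were lower at each later age, within 2-fold as deposited, and lower in adult testis under every scaling. Uqcrh has 1 near copy and Uqcr11 has 2, so the counting of shared reads could affect them.

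**Figure D4:**
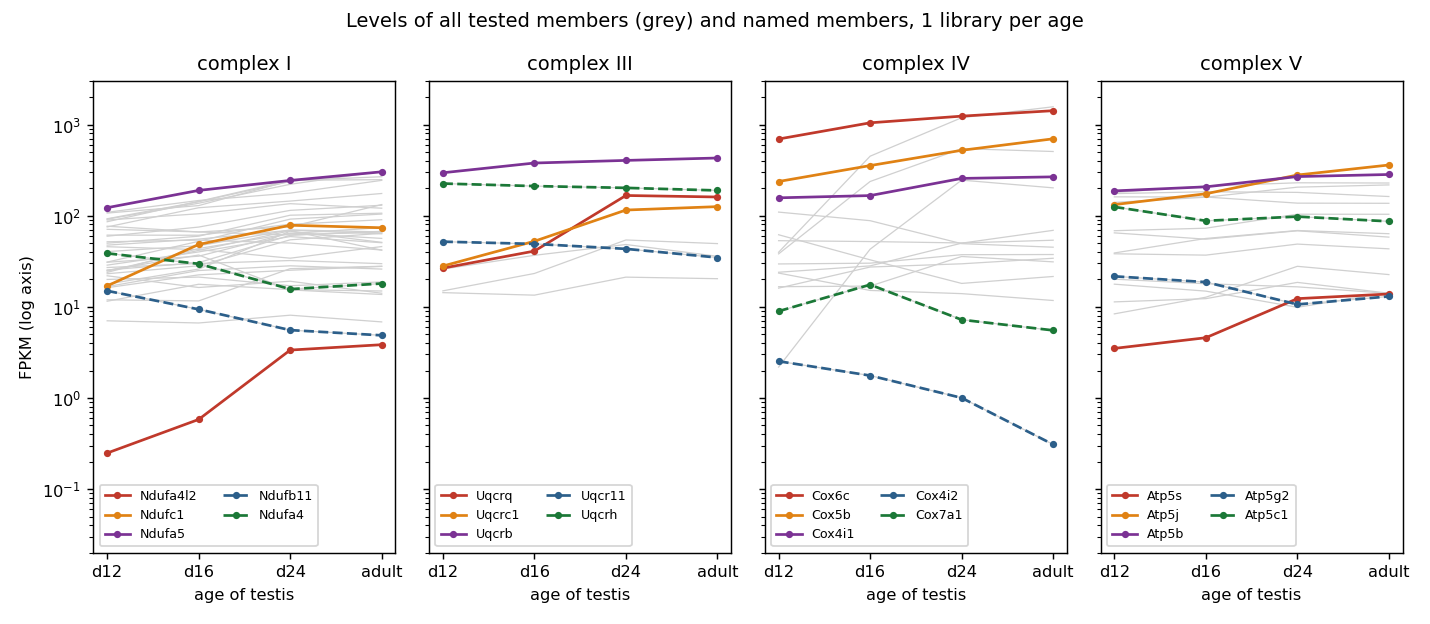
FPKM on a log axis at the 4 ages for all tested members of complexes I, III, IV and V (grey), with named members in colour, solid for those described as higher or abundant and dashed for those with lower values in adult testis. Uqcrq goes from 26.6 to 160.2 FPKM and Cox4i2 from 2.53 to 0.309, in the same direction under every scaling; the lines of Cox6c, Cox4i1, Uqcrb and Atp5b slope up as deposited and the adult values lie under those at d12 with the same FPKM sum.

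Complex IV had 16 tested members, of which 7 rose and 3 fell from d12 to adult testis as deposited, against 35.7% and 23.1% of all genes. With the same FPKM sum 3 rose and 6 fell, against 23.2% and 49.8%. The 3 testis isoforms rose and Cox4i2, Cox6b1 and Cox7b fell under all 4 scalings. Cox6c, a small membrane subunit, had the highest mean of all members. It had 693 FPKM at d12, 1044 FPKM at d16, 1236 FPKM at d24 and 1418 FPKM in the adult, a rise of 2.05-fold (1.97 to 2.13) as deposited that turned to a log2 change of -0.18 with the same FPKM sum. Cox6c was the highest member at d12, d16 and d24 and was passed by Cox6b2 in adult testis. Cox5b, the zinc-binding subunit, came next among the subunits other than the testis isoforms. It had 237 FPKM at d12, 354 FPKM at d16, 521 FPKM at d24 and 697 FPKM in the adult, a rise of 2.94-fold (2.78 to 3.12) that kept its direction under every scaling. Cox6c and Cox5b each have 2 near copies in the genome.

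Cox4i1, the general form of the largest nuclear-encoded subunit, had 157 FPKM at d12, 166 FPKM at d16, 256 FPKM at d24 and 267 FPKM in the adult, higher in adult testis as deposited and lower with the same FPKM sum. Cox5a, the other matrix-side subunit, had 16.6 FPKM at d12, 16.9 FPKM at d16, 35.7 FPKM at d24 and 31.1 FPKM in the adult. Cox7a2, the general form of subunit VIIa, had 23.9 FPKM at d12, 28.1 FPKM at d16, 49.9 FPKM at d24 and 69.01 FPKM in the adult, a rise of 2.88-fold (2.45 to 3.395) that kept its direction under every scaling. Cox6a1, the general form of subunit VIa, had 16.03 FPKM at d12, 27.3 FPKM at d16, 29.6 FPKM at d24 and 34.1 FPKM in the adult, a rise as deposited that turned to a log2 change of -0.13 with the same FPKM sum. The COX partners without a testis isoform, Cox4i1, Cox6a1 and Cox7a2, thus had higher deposited values in adult testis than at d12, while Cox6b1, Cox7b and Cox8a had lower ones. Cox7a2l, which helps join complexes III and IV, had 53.1 FPKM at d12, 51.98 FPKM at d16, 50.2 FPKM at d24 and 53.8 FPKM in the adult, with 1 near copy in the genome. Its 4 deposited values had counting intervals that overlapped, and its adult value was under that at d12 with the same FPKM sum.

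The isoforms known from other tissues were below their partners at all 4 ages. Cox4i2, the lung isoform of subunit IV, had 2.53 FPKM at d12 (1.602 to 3.79), 1.76 FPKM at d16 (1.01 to 2.86), 1.002 FPKM at d24 (0.573 to 1.63) and 0.309 FPKM in the adult (0.0374 to 1.11), from 23 fragments at d12 and 2 in adult testis. Its ratio of adult testis to d12 was 0.122 (0.01396 to 0.494), and its share in the pair with Cox4i1 went from 1.58% (1.01 to 2.37) at d12 to 0.116% (0.0140 to 0.417) in adult testis. Cox7a1, the heart and muscle isoform of subunit VIIa, was the highest of this group. It had 8.94 FPKM at d12 (6.42 to 12.1), 17.5 FPKM at d16 (13.9 to 21.8), 7.21 FPKM at d24 (5.48 to 9.33) and 5.52 FPKM in the adult (3.27 to 8.72), and its share in the pair with Cox7a2 was 27.2% at d12 (20.7 to 34.3), 38.3% at d16 (32.3 to 44.5), 12.6% at d24 (9.81 to 15.9) and 7.4004% in the adult (4.48 to 11.3). The d16 library held its highest level and share, and the step from d16 to d24 was a fall under all 4 scalings. Cox6a2, the heart and muscle isoform of subunit VIa, had 0.121, 0, 0.483 and 1.02 FPKM at the 4 ages, from 1, 0, 7 and 6 fragments. Cox8b, another muscle isoform, had 0.440 FPKM from 2 fragments at d12 and no fragment at the other ages, where 3 fragments would be 0.661, 0.376 and 0.927 FPKM in order of age. Counts this low do not allow an order among ages for Cox8b. Markers of striated muscle were near 0, with a sum over 6 genes of 3.70, 2.07, 1.18 and 0.967 FPKM in order of age, and 2, 2, 0 and 3 of the 6 at 0. Markers of fat summed to 73.3, 33.0, 17.6 and 17.4 FPKM, with Ucp1 at 0 from d16 on and 0, 1, 1 and 2 of the 6 at 0. Markers of smooth muscle and peritubular myoid cells summed to 258, 211, 152 and 308 FPKM over 6 genes, with none at 0. Of these 6 genes, 1 rose and 4 fell from d12 to adult testis as deposited. A single gene held 225 FPKM of the adult sum, which therefore does not describe most of the list. The part of muscle, fat and myoid cells in the levels of these isoforms was not tested.

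Complex V had the smallest median log2 change of the 4 complexes from d12 to adult testis, 0.31 as deposited. Of its 17 members, 3 rose and 0 fell as deposited, against 35.7% and 23.1% of all genes, and with the same FPKM sum 0 rose and 8 fell, against 23.2% and 49.8%. None passed 2-fold under all 4 scalings. Of the 3 that rose, Atp5s and Atp5sl are annotated in RefSeq as assembly components of the distal membrane arm of complex I, Dmac2l and Dmac2, and not as ATP synthase subunits. Atp5s had 3.495 FPKM at d12, 4.58 FPKM at d16, 12.3 FPKM at d24 and 13.8 FPKM in the adult, a rise of 3.95-fold (2.97 to 5.32), and Atp5sl had 8.36 FPKM at d12, 12.7 FPKM at d16, 27.8 FPKM at d24 and 22.6 FPKM in the adult. The remaining one, Atp5j, is a subunit of the peripheral stalk, which holds the catalytic head still against rotation. It had 132 FPKM at d12 (123 to 142), 174 FPKM at d16 (164 to 185), 279 FPKM at d24 (269 to 289) and 359.5 FPKM in the adult (342 to 378), a rise of 2.72-fold (2.497 to 2.96), and was higher in adult testis under every scaling.

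The catalytic head and the central stalk of ATP synthase are built of 5 members. Atp5b, the catalytic beta subunit, had the highest mean of complex V, with 187 FPKM at d12, 207 FPKM at d16, 268 FPKM at d24 and 283 FPKM in the adult, higher in adult testis as deposited and lower with the same FPKM sum. Atp5c1, the gamma subunit of the central stalk, had 125 FPKM at d12, 87.8 FPKM at d16, 97.6 FPKM at d24 and 86.6 FPKM in the adult, with a ratio of adult testis to d12 of 0.694 (0.638 to 0.756) and a lower adult value under every scaling. Subunits of the head and central stalk thus had ratios on both sides of 1 as deposited. The c ring, whose rotation is driven by protons, is encoded by 3 genes that give the same mature protein. Atp5g1 had 17.7, 14.9, 9.88 and 14.3 FPKM at the 4 ages, Atp5g2 had 21.6, 18.7, 10.6 and 13.000 FPKM, and Atp5g3 had 20.1, 17.9, 16.6 and 14.04 FPKM. Their sum was 59.4, 51.4, 37.1 and 41.3 FPKM in order of age, and all 3 were lower in adult testis than at d12 under every scaling. As deposited, the ratio of adult testis to d12 was 0.602 (0.453 to 0.793) for Atp5g2 and 0.698 (0.531 to 0.912) for Atp5g3. For Atp5g1 it was 0.807 (0.628 to 1.04), an interval that includes no change. Atp5g3 held 33.8%, 44.7% and 34.0% of the sum in the d12, d24 and adult libraries. For Atp5g2 these shares were 36.3%, 28.7% and 31.4%, and for Atp5g1 they were 29.8%, 26.7% and 34.6%, so no gene of the c ring held over 50% at these ages. Atp5g1 has 1 near copy and Atp5g2 has 2. The membrane subunit Atp5l has 10 near copies in the genome, the most of any member, and its values of 64.8, 55.2, 68.2 and 58.1 FPKM are uncertain for that reason.

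The 3 X-linked members had lower values in adult testis than at d12 under every scaling. Ndufa1, a small complex I subunit on the X, had 25.1 FPKM at d12 (21.3 to 29.3), 36.996 FPKM at d16 (32.3 to 42.1), 15.3 FPKM at d24 (13.1 to 17.8) and 13.6 FPKM in the adult (10.4 to 17.5), with a ratio of adult testis to d12 of 0.544 (0.397 to 0.737). Its value was highest at d16 as deposited, and the following step to d24 was a fall under all 4 scalings. Ndufb11, a membrane subunit of complex I, had 14.98 FPKM at d12 (12.7 to 17.6), 9.38 FPKM at d16 (7.59 to 11.4), 5.55 FPKM at d24 (4.52 to 6.75) and 4.86 FPKM in the adult (3.45 to 6.82), with a ratio of 0.325 (0.222 to 0.474), and was lower at each later age. Cox7b is described above. The 612 tested X-linked genes had a median log2 change of -1.24 from d12 to adult testis as deposited and 55.7% of them fell, where the 13180 autosomal genes had 0.25 and 21.6%. From d12 to d16 the medians were -0.44 and 0, from d16 to d24 -0.69 and 0.16, and from d24 to adult testis -0.03 and -0.02. The median of the 3 X-linked members, -1.52, lay near that of X-linked genes in all. Of the 3, only Cox7b has an autosomal testis isoform among the members.

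Adenine nucleotide carriers exchange the ATP made by complex V for cytosolic ADP. Slc25a4, the form of heart and muscle, had 150.2 FPKM at d12 (144 to 156), 124 FPKM at d16 (118 to 129), 58.1 FPKM at d24 (55.3 to 60.9) and 56.7 FPKM in the adult (52.5 to 61.1), and the X-linked general form Slc25a5 had 73.98 FPKM at d12 (69.8 to 78.3), 70.8 FPKM at d16 (66.8 to 75.05), 43.2 FPKM at d24 (40.8 to 45.7) and 31.2 FPKM in the adult (28.05 to 34.6). Both fell from d12 to adult testis under all 4 scalings, with ratios of 0.377 (0.346 to 0.411) and 0.421 (0.374 to 0.475). Slc25a31, the form of male germ cells, had 19.1 FPKM at d12 (17.5 to 20.9), 27.03 FPKM at d16 (25.1 to 29.1), 23.1 FPKM at d24 (21.8 to 24.6) and 20.7 FPKM in the adult (18.7 to 22.9). Its course differed from that of the testis isoforms of the chain, since its ratio of adult testis to d12 was 1.08 (0.948 to 1.24) as deposited and it was lower in adult testis with the same FPKM sum.

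**Figure D5:**
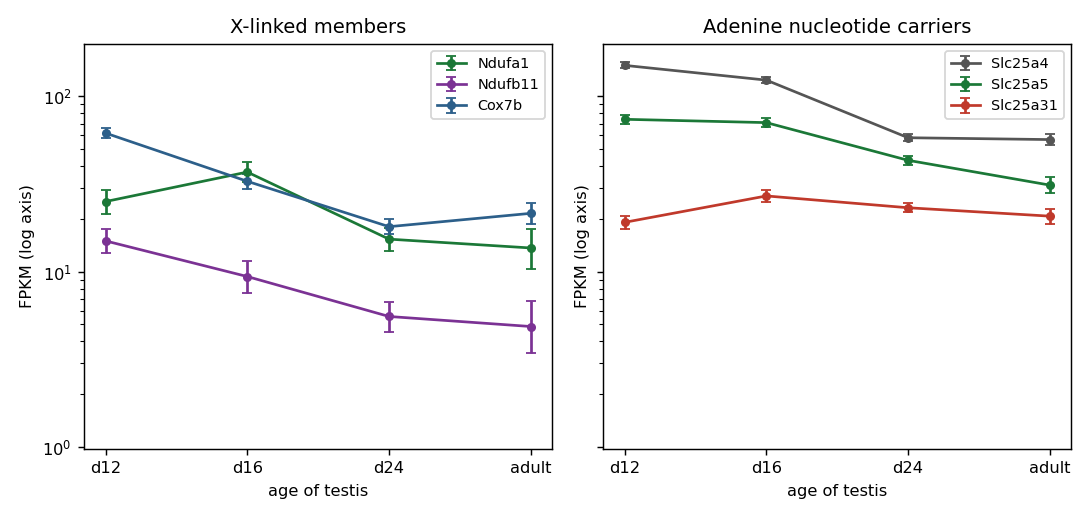
FPKM on a log axis at the 4 ages of the 3 X-linked members (left) and of the adenine nucleotide carriers (right), 1 library per age, with bars for the 95% counting interval. Ndufb11 goes from 15.0 to 4.86 FPKM and Slc25a4 from 150.2 to 56.7, lower under every scaling, while Slc25a31 stays between 19.1 and 27.03 FPKM as deposited and is lower in adult testis than at d12 with the same FPKM sum.

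Genes that work with the members were read from lists of their pathway. Of all genes, 35.7% rose and 23.1% fell from d12 to adult testis as deposited. With the same FPKM sum these shares were 23.2% and 49.8%, and under all 4 scalings 23.2% and 22.6%. The lists are short, and their counts are given beside these shares as a description. Of the 4 subunits of complex II, which feeds electrons from succinate, 0 rose and 0 fell from d12 to adult testis as deposited, and Sdhc and Sdhd, the membrane anchors, fell with the same FPKM sum. Sdha, the flavoprotein, had 89.8, 101, 117 and 106 FPKM at the 4 ages. Of 24 further genes of complexes III and IV, mostly assembly factors, 6 rose and 3 fell as deposited, 2 rose and 12 fell with the same FPKM sum, and 2 rose and 3 fell under all 4 scalings. Lyrm7, a chaperone of the Rieske protein, had 0.513, 1.43, 5.35 and 11.01 FPKM, and Uqcc2, an assembly factor of complex III, had 87.6, 136, 318 and 445 FPKM. Both rose under all 4 scalings. Those that fell were Coa7, with 4.86, 3.06, 2.23 and 1.404 FPKM, Cmc1, with 8.17, 5.82, 4.42 and 2.65 FPKM, and Ttc19. Of 14 assembly factors of complex I, 3 rose and 3 fell as deposited, and with the same FPKM sum 1 rose and 8 fell. Ndufaf6, Timmdc1 and Tmem126b fell under all 4 scalings, and only Ndufaf3 rose under all 4, with 2.02, 11.02, 45.9 and 42.5 FPKM. Of the 4 genes for ATP synthase assembly and its inhibitor, 1 rose and 0 fell as deposited, Atpaf2 with 10.3, 12.2, 17.005 and 25.9 FPKM, which did not pass 2-fold with the same FPKM sum.

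Among 12 genes of the outer membrane, protein import, prohibitins and matrix metabolism of mitochondria, 2 rose and 2 fell as deposited. With the same FPKM sum 1 rose and 8 fell. Of all genes, 35.7% rose and 23.1% fell as deposited, and 23.2% and 49.8% with the same FPKM sum. The porin Vdac2 had 102, 157, 477 and 519 FPKM at the 4 ages and rose under all 4 scalings. The porin Vdac1 had 32.9, 25.4, 15.6 and 10.99 FPKM, and the chaperonin Hspd1 had 110.4, 79.5, 39.8 and 41.2 FPKM, both falls under all 4 scalings. Citrate synthase, Cs, often used as a measure of mitochondrial mass, had 26.005, 24.02, 21.4 and 17.2 FPKM, within 2-fold as deposited and lower in adult testis under every scaling. Of 12 tested regulators of mitochondrial genes, 4 rose and 1 fell as deposited. With the same FPKM sum 2 rose and 6 fell, against the same shares of all genes as above. Tfam, which packages mitochondrial DNA, had 11.6, 9.02, 12.7 and 76.9 FPKM, with its main step between d24 and adult testis. Crem, a cAMP response element factor of male germ cells, had 5.61, 20.55, 84.05 and 130.4 FPKM. Both rose, and Pprc1 fell, under all 4 scalings.

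Members had short transcripts. The curated transcripts used, a single one for each member, ran from 320 to 3154 bp with a median of 682 bp. All matched genes of the table had a median of 2210 bp, and 60 of the 83 members' transcripts were under 1 kb. Near copies were found in the genome for 19 members, and 64 had none at the identity and coverage searched. Of the 19, 4 rose and 0 fell from d12 to adult testis as deposited, and of the 62 tested members without a copy, 27 rose and 6 fell, where 35.7% of all genes rose and 23.1% fell. Among the 19, 0 rose and 7 fell with the same FPKM sum, and among the 62, 6 rose and 20 fell, where 23.2% of all genes rose and 49.8% fell. Of the members, 3.61% were X-linked, where all matched genes had 4.37%.

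Promoters from 250 bases before to 50 after the transcription start were found for 68 members. The letters TGACGTCA stood in 5 of them, 7.35%, on either strand, where they stood in 3.33% of 10807 promoters of genes averaging at least 1 FPKM. The shorter TGACG, which TGACGTCA contains, stood in 38.2% and 31.0%. The NRF1 motif, of a factor known for respiratory genes, stood in 20.6% of member promoters and 10.5% of those 10807, which include the promoters of tested members. The YY1 motif AAGATGGCG stood in 10.3% (7 member promoters) and 3.12%, the ETS motif CCGGAAG in 19.1% and 18.2%, and the Sp1 motif GGGCGG in 39.7% and 61.8%. The estrogen-related receptor motif TCAAGGTCA stood in 1.47% and 0.315%, the former being a single promoter. The MYB motif CAACTG stood in 10.3% and 11.6%. Of the 3 testis isoforms with a promoter, none held the NRF1 motif, the YY1 motif or TGACGTCA. Of the 4 partners, 0 held the NRF1 motif, 0 the YY1 motif and 1, Cycs, TGACGTCA. So few promoters do not set the isoforms apart from their partners or from the other members. These matches describe the letters in the windows only.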

How the data were processed

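Total RNA of 4 WT C57BL/6J testis samples was sequenced as strand-specific, paired-end libraries, and groups were taken from the sample labels. The authors aligned the reads with TopHat2 2.1.0 (through bowtie 1.1.2; genome GRCm38/mm10), with 1 placement for each pair. The deposited FPKM values came from Cuffdiff, a program of Cufflinks 2.2.1, over RefSeq annotation, with correction for multi-reads and sequence bias and without effective length correction. Reads of genes with near copies can be misplaced in these steps. The deposited values lie close to a scaling by median ratios.

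Log2 changes used a pseudocount of 0.1 FPKM over genes averaging at least 1 FPKM, and a change past 2-fold was counted. Whole fragments were recovered by dividing each value by what 1 fragment is worth, given the curated RefSeq transcript length (the shortest, where a gene has several). Of values of up to 20 fragments, 91.4% to 92.3% lay within 0.05 of a whole number. Intervals are exact Poisson and Clopper-Pearson 95% intervals. Near copies were searched in the genome with blastn 2.17.0 (95% identity over 80% of the transcript). Other steps used python 3.11.15, numpy 2.4.6, pandas 2.3.3, scipy 1.17.1 and matplotlib 3.10.9. The recovery of fragments and the counts were tested on simulated data, where the worth of 1 fragment came out to within 1 percent for all 4 libraries.

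Genes named are the isoforms and partners, the member with the highest mean of each complex, the 2 with the largest rise and the 2 with the largest fall, X-linked members, adenine nucleotide carriers, members under 1 FPKM and up to 4 examples of each pathway list. The other members named (Ndufv2, Ndufs8, Ndufa6, Ndufa10, Ndufa11, Ndufa12, Uqcrfs1, Uqcrc2, Cox5a, Cox5b, Cox7a2l, Atp5sl, Atp5l and the c ring genes), Sdha, Cs and the marker genes named were chosen after their values were seen. The members and lists were chosen with earlier results of these data known. Alternatives were other scalings between libraries, a pseudocount of 1 FPKM, a filter at a mean of 5 FPKM or none, limits of 1.5-fold and 3-fold, members without near copies, shares by fragments and, added after seeing the data, d12 against d24.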

Additional observations from a re-analysis of the deposited data

How the results depend on the processing

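No paired analysis was possible because each age has 1 library. Of 106 alternatives to the counts of members and to the isoform shares, 68 left the value within 1.5 times or its counting interval and 38 moved it. With the same FPKM sum, 1 member fell from d12 to d16, 3 rose and 10 fell from d16 to d24, 2 fell from d24 to adult testis, and 6 rose and 27 fell from d12 to adult testis. With upper quartile scaling these were 1, then 3 and 10, and 9 and 22 from d12 to adult testis. Of all genes, 5.68% fell from d12 to d16 with the same FPKM sum and 5.95% with upper quartile scaling. From d16 to d24, 20.3% of all genes rose and 26.5% fell with upper quartile scaling. From d24 to adult testis, 9.83% of all genes fell with the same FPKM sum. At a 1.5-fold limit, 21 rose and 3 fell from d12 to d16, 29 rose and 9 fell from d16 to d24, 1 rose and 2 fell from d24 to adult testis, and 11 fell from d12 to adult testis. At a 3-fold limit, 3 rose and 0 fell from d16 to d24, 0 fell from d24 to adult testis, and 14 rose and 3 fell from d12 to adult testis. Shares of all genes at the 1.5-fold and 3-fold limits are not given here, so these counts are not set against a background. From d24 to adult testis 0 fell with a pseudocount of 1 FPKM or a filter at a mean of 5 FPKM, which takes out Cox4i2, and with no filter 2 fell from d12 to d16. By fragments, without division by length, the share of Cyct was 2.51%, 20.4%, 47.3% and 51.1% at d12, d16, d24 and adult testis, that of Cox6b2 31.3%, 86.5%, 96.8% and 97.8%, and that of Cox7b2 25.1%, 79.7%, 94.2% and 92.7%. Among single members, Cox6c (log2 change -0.18) and Cox6a1 (-0.13) turned from a rise to a lower value from d12 to adult testis with the same FPKM sum. The moves under other scalings follow from their construction. Depth limits Cox4i2, Cox6a2, Cox8b and Ndufa4l2, which rest on few fragments in at least 1 library.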

Other observations

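Regulators of mitochondrial genes other than Tfam, Crem and Pprc1 had varied courses. Tfb1m, which modifies mitochondrial ribosomal RNA, had 6.05, 7.92, 18.4 and 26.1 FPKM at d12, d16, d24 and adult testis, and Esrra, the estrogen-related receptor alpha, had 1.603, 2.71, 5.64 and 4.95 FPKM. Both rose as deposited, Tfb1m also with upper quartile scaling, and neither with the same FPKM sum. Nrf1, a factor of respiratory genes, had 17.2, 17.3, 15.4 and 15.6 FPKM, and Gabpa, the DNA-binding part of another, had 20.3, 19.2, 15.9 and 14.7 FPKM, both within 2-fold as deposited and lower in adult testis under every scaling. The estrogen-related receptor Esrrb, with 0.133, 0.152, 1.04 and 1.15 FPKM, and the coactivator Ppargc1b, with 0.109, 0, 0.722 and 1.63 FPKM, had means under 1 FPKM and were not tested.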
